A study of Mus musculus with 120 samples.

Results

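The genes described here carry the authors' ER-targeted flag in the deposited translation table and yet had most of their ribosome footprints in the cytosol fraction of untreated wild-type cells. They were chosen by a total footprint level of 10 RPKM or more and a fraction on the ER under 0.5, both in wild-type cells at 0 h, with solute carriers, Tmem genes and the mitochondrial subunit families named Nduf, Cox, Uqcr, Atp5 and Mrp left out by symbol. This gave 196 genes of 22417 in the table. Of the 8434 genes with the flag, 1403 reached the minimum level in wild-type cells at 0 h. Of those, 863 had 0.5 or more of their footprints on the ER and 179 had no fraction, while 41 under 0.5 and 124 others were left out by symbol. The sources used here do not give how the flag was assigned. The 196 genes are called cytosol-side genes below, the 863 are called ER-side genes, and 5675 genes without the flag at the same minimum serve as a further set.

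The cells were mouse fibroblasts of 3 genotypes, grown from embryonic connective tissue. Wild-type (WT) cells were C57BL/6, eIF2a S51A cells carry a translation factor that cannot be phosphorylated at the site used by PERK, and the remaining line is labelled ATF4-/-. Each genotype was untreated (0 h) or given 1 µM thapsigargin, an inhibitor of calcium uptake into the endoplasmic reticulum (ER) that causes ER stress, for 0.5, 1, 2 or 4 h. Digitonin released a cytosol fraction and DDM an ER fraction from the same cells, and ribosome footprints and mRNA were sequenced from each, with 2 libraries in each of 60 groups. The labels give no clone or passage for any line.

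Most proteins of the secretory pathway start with a hydrophobic signal sequence. As it leaves the ribosome, the signal recognition particle binds it and brings the ribosome to the Sec61 channel of the ER, so such proteins are made on ER-bound ribosomes. Tail-anchored proteins carry their single membrane segment at the very end of the chain, which is still inside the ribosome when translation stops. They are inserted into the ER or the mitochondrial outer membrane after release, in the ER case in part by the Get/TRC40 pathway. Most proteins of the mitochondrial inner compartments are also made on cytosolic ribosomes and imported. A flag for a hydrophobic segment or an organelle can therefore include proteins made on free ribosomes.

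The position of the hydrophobic segment is shown by the coding sequence of 1 window of 19 codons per gene, read from GENCODE M21 transcripts on GRCm38. Capital T marks a T at the second codon position, which codes for hydrophobic residues (Phe, Leu, Ile, Met and Val). The first set is the hydrophobic window nearest the C-terminus of the 4 genes with the highest WT level at 0 h among those on the tail-anchored list with a C-terminal segment only. Bnip3 (chr7:138891951-138894426, minus strand, across exons 5 and 6 of 6) is a mitophagy receptor of the mitochondrial outer membrane. Its window covers residues 158 to 176 of 187, and 11 of 19 codons have the T. Vapa (chr17:65580692-65580748, minus strand, exon 6 of 6), an ER protein of membrane contact sites, has residues 231 to 249 of 249, with 14 of 19. Cyb5b (chr8:107179441-107183632, plus strand, across exons 4 and 5 of 5) is the cytochrome b5 of the mitochondrial outer membrane, with residues 117 to 135 of 146 and 9 of 19. Sec61b (chr4:47482982-47483038, plus strand, exon 4 of 4) is the beta subunit of the Sec61 channel, with residues 71 to 89 of 96 and 14 of 19.
Bnip3: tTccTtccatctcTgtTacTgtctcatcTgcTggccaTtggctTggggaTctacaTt
Vapa: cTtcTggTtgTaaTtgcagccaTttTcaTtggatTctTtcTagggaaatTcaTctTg
Cyb5b: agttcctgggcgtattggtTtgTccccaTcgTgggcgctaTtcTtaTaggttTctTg
Sec61b: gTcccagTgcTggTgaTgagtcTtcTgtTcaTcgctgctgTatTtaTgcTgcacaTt
Over all codons of the cytosol-side genes, 27.7% have a T at the second position, and the share was 27.73% in ER-side genes and 25.57% in genes without the flag.

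The second set holds the first hydrophobic window of the 4 cytosol-side genes of the highest level among those with an N-terminal segment that are not on the tail-anchored list, beside those of a pair of ER-side genes. Ost4 (chr5:30907461-30907517, minus strand, exon 2 of 3) is a very small subunit of the oligosaccharyltransferase, with residues 7 to 25 of 37. Minos1 (chr4:139105860-139130934, minus strand, across exons 1 and 2 of 4) is a subunit of the MICOS complex of mitochondrial cristae, with residues 18 to 36 of 76. Smim15 (chr13:108047525-108047581, plus strand, exon 3 of 3) has residues 22 to 40 of 74, and Ifi27l2a (chr12:103442947-103443491, minus strand, across exons 2 and 3 of 4) has residues 10 to 28 of 90. For contrast, B2m (chr2:122147747-122147803, plus strand, exon 1 of 4), the light chain of MHC class I, has residues 4 to 22 of 119. Ccl2 (chr11:82035674-82035730, plus strand, exon 1 of 3), a secreted chemokine, has residues 5 to 23 of 148.
Ost4: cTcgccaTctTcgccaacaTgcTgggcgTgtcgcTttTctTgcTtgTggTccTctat
Minos1: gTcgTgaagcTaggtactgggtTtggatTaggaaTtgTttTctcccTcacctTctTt
Smim15: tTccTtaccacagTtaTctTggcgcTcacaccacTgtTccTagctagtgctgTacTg
Ifi27l2a: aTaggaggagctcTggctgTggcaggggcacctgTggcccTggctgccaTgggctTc
B2m: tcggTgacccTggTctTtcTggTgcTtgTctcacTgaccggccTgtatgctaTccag
Ccl2: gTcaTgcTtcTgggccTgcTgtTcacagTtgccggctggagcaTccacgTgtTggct
The residues left after the window number 12 in Ost4, 40 in Minos1, 34 in Smim15 and 62 in Ifi27l2a. They number 97 in B2m and 125 in Ccl2, whose footprint fractions on the ER were 0.961 and 0.983 in WT at 0 h.

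At the index used, a hydrophobic segment at the C-terminus only was the most frequent arrangement of the cytosol-side genes, and an N-terminal segment that of the ER-side genes. A segment is a run of windows of 19 residues with a mean Kyte-Doolittle index of at least 1.6, and it is terminal when it lies within 40 residues of an end. Of the 170 cytosol-side genes with a coding sequence, 75 (44.1%) had a C-terminal segment only, 22 (12.9%) an N-terminal one, 22 (12.9%) one elsewhere and 51 (30%) none. Of 838 ER-side genes the counts were 43 (5.13%), 483 (57.6%), 206 (24.6%) and 106 (12.6%). Of 5263 genes without the flag, 28 (0.532%) had a C-terminal segment only and 4661 (88.6%) had none. A median of 2 residues followed the segment in the 75 genes, and 46 of them are on a list of known tail-anchored proteins. Under a stricter index of 1.8, 71 cytosol-side genes (41.8%) were C-terminal only, 66 of them also at 1.6, and those with no segment rose from 51 to 68 (40%), so the 2 classes were then nearly equal. The ER-side C-terminal class then rose from 43 to 63 and the ER-side N-terminal class fell from 483 to 356. The segments come from sequence alone, which the rule did not use. The flag itself may have been made from predicted segments, since its making is not given.

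**Figure D1:**
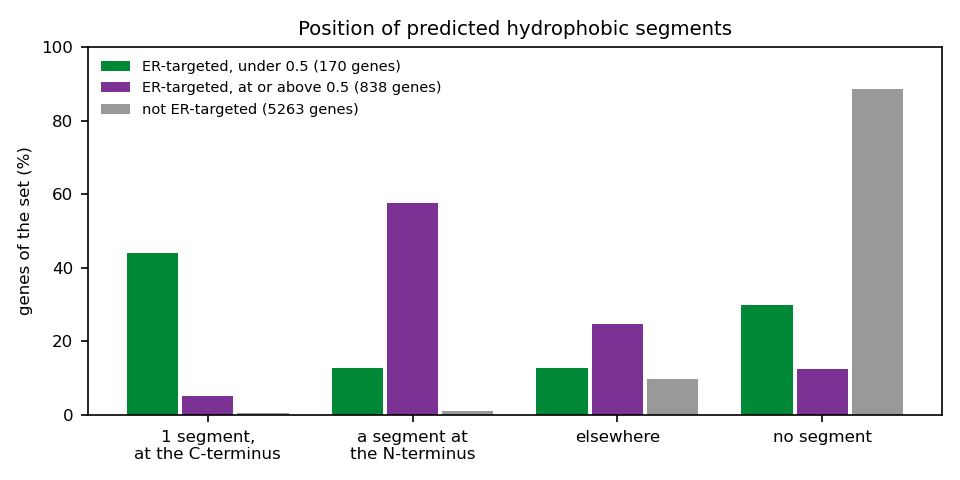
Share of each gene set (y axis, percent of genes with a coding sequence) by the position of predicted hydrophobic segments (x axis), with 1 bar per set. The C-terminal class held 44.1% of the cytosol-side genes and 5.13% of the ER-side genes, and the N-terminal class 12.9% and 57.6%.

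Read the other way, over the 170 cytosol-side and 838 ER-side genes with a coding sequence, the share of cytosol-side genes differed by the position of the segment. Flagged genes left out by symbol or without a fraction do not enter these shares. Of 118 genes with a C-terminal segment only, 75 (63.6%) were cytosol-side. Of 505 with an N-terminal segment, 22 (4.36%) were, as were 22 of 228 (9.65%) with a segment elsewhere and 51 of 157 (32.5%) with none. The 43 ER-side genes with a C-terminal segment only had a median fraction of 0.961 in WT at 0 h. A few lay close to 0.5, among them Bcl2l1 at 0.507, an antiapoptotic Bcl-2 protein, Lrrc59 at 0.511 and Bak1 at 0.54, a proapoptotic one. Others, such as H2-K1 at 0.971 and Itga5 at 0.989, lay far above it. The class means only that no N-terminal window reached the index. A less hydrophobic N-terminal signal sequence would not be counted, and whether these proteins have one was not tested. The cytosol-side proteins were also shorter. Their median was 257 residues against 379 in ER-side genes and 396 in genes without the flag, and 27.65% were under 150 residues against 9.427% and 10.72%. Exactly 1 segment was found in 105 of the 170 and more than 1 in 14. Of the 196 genes, 24 have predicted gene models, such as Gm14217, Gm10177, LOC100862433 and LOC100505015, which are among the 10 highest levels. Such models are often copies that share reads with a parent gene, and their values are uncertain.

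Of the 196 cytosol-side genes, 84 are on at least 1 of 9 lists of known membrane and organelle proteins. In the lists, tail-anchored proteins gave 54 cytosol-side genes out of 59 flagged genes at the minimum with a fraction, and SNAREs, the proteins that drive membrane fusion, gave 24 of 25. The mitochondrial outer membrane gave 19 of 25, the inner mitochondrial compartments 21 of 34, the Bcl-2 family 5 of 7 and peroxisomal membrane proteins 3 of 6. By contrast the ER translocon and membrane biogenesis list gave 5 of 37, the nuclear envelope list 1 of 8 and the secreted and matrix list 0 of 41. That last list does not hold Fgf7, a secreted growth factor among the cytosol-side genes, so the 0 covers the listed genes only. The lists overlap, and most of the 196 genes are on none of them. These counts follow from the WT 0 h values that chose the genes, so they describe the set and are no test of it.

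Close to the limit of 0.5, Rdh13 (0.499), the secreted growth factor Fgf7 (0.497) and the mitochondrial protease Htra2 (0.497) were just inside, and Fpgs (0.502), Fndc3b (0.504) and Mpv17 (0.505) just outside. At the minimum of 10 RPKM, Mrs2 (10.1), Tbc1d20 (10.2) and Rnf19b (10.4) were inside, and Rrm2b (9.65), LOC101055631 (9.496) and Acsl1 (9.20) outside. The deposited fractions of the 196 genes in WT at 0 h ran from 0.205 to 0.499 with a median of 0.365. Genes without the flag had a median of 0.374 in the same cells, and ER-side genes 0.962.

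The fraction on the ER stayed low in genotypes that the rule did not use. The median was 0.354 in S51A and 0.442 in ATF4-/- cells at 0 h, beside 0.93 and 0.96 for the ER-side genes and 0.367 and 0.437 for genes without the flag. Under 0.5 were 191 of 196 genes in S51A (97.4%) and 147 of 195 in ATF4-/- cells (75.4%). The same share among genes without the flag was 92.6% and 78.4%. These are the authors' pooled ratios of ER level to total, with no replicate error. They depend on the weight the authors gave to each fraction.

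Under thapsigargin the median fraction of the cytosol-side genes lay closer to that of the genes without the flag than to that of the ER-side genes in every column. In WT cells at 0.5 h the median change of the fraction from 0 h was -0.0813 for cytosol-side genes, -0.0655 for genes without the flag and -0.43 for ER-side genes. The ER-side median thus fell from 0.962 to 0.503, while that of the cytosol-side genes fell from 0.365 to 0.283. In S51A cells at 0.5 h the same changes were -0.0909, -0.0844 and -0.0402, and in ATF4-/- cells -0.12, -0.116 and -0.224. As a difference of ratios, the ER-side change at 0.5 h was thus smaller than the cytosol-side change in S51A cells and larger in the other lines. The S51A medians at 0 h were 0.93 for ER-side genes, near the top of the ratio, and 0.354 for cytosol-side genes. The order in S51A cells can therefore depend on the scale used. At 4 h the cytosol-side change was 0.0532 in WT, 0.048 in S51A and 0.0192 in ATF4-/- cells, that of the genes without the flag was 0.0401, 0.0324 and 0.0116, and that of the ER-side genes -0.0287, 0.00998 and -0.0678. These are medians of pooled ratios and were not tested. WT values at 0 h also chose the genes.

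**Figure D2:**
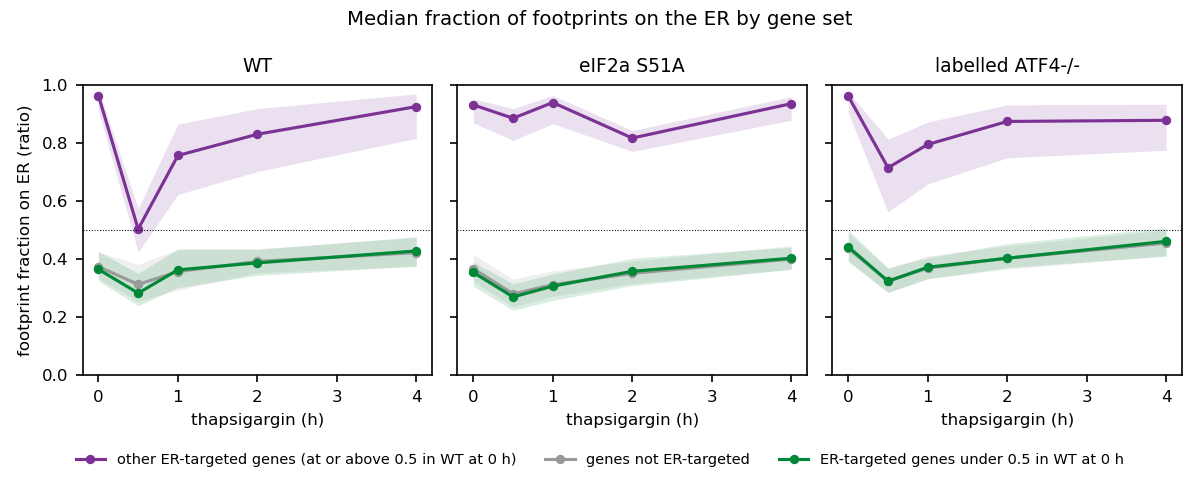
Median footprint fraction on the ER (y axis, ratio) against hours of thapsigargin (x axis) for 3 gene sets in each genotype, with the middle 50% of genes shaded. The ER-side median in WT fell from 0.962 to 0.503 at 0.5 h, while the cytosol-side genes and the genes without the flag lay together, at 0.283 and 0.313.

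Over all 15 genotype and time columns, 191 genes had a fraction throughout, and 98 of them were under 0.5 in every column. A further 35 were under 0.5 in 14 columns, and 172 in 12 or more. The median range between the lowest and highest column was 0.261. Usp48 varied least (range 0.135), followed by Fam210a (0.148), Aldh3a2 (0.15), a fatty aldehyde dehydrogenase, Tsr1 (0.154), a ribosome assembly factor, and Gm11575 (0.163). The widest range was that of the interferon-inducible Ifi27l2a, from 0.0317 in WT at 0.5 h to 0.671 in WT at 1 h. Vamp2 (0.47), Romo1 (0.466) and Smdt1 (0.457) also ranged widely, at WT 0 h levels of 17.99 RPKM for Vamp2, 40.7 RPKM for Romo1 and 142 RPKM for Smdt1, beside a median of 47.9 RPKM for the cytosol-side genes. Ifi27l2a, Vamp2 and Smdt1 all had their highest fraction in WT at 1 h. The shallowest footprint libraries are WT cytosol 0.5 h b (298952 reads), cytosol 1 h b (388952) and ER 1 h b (418179). The part of depth in these ranges was not tested.

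**Figure D3:**
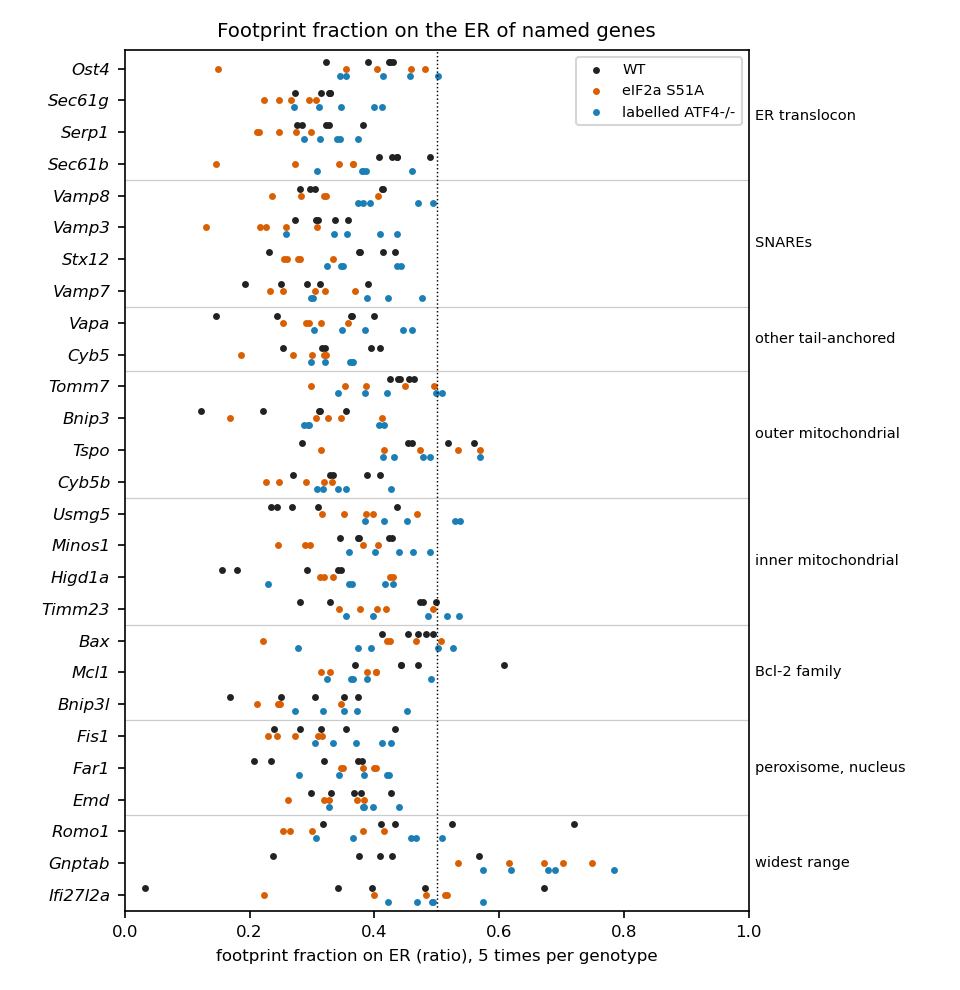
Footprint fraction on the ER (x axis, ratio) of named cytosol-side genes (y axis, grouped by role), with 5 points per genotype for the 5 times. Most points lie left of the dotted line at 0.5, and those of Gnptab in S51A and ATF4-/- cells lie right of it.

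Gnptab departed from the pattern in both mutant lines. It encodes a Golgi phosphotransferase that starts the mannose 6-phosphate tag of lysosomal enzymes. Its deposited fraction was 0.375 in WT at 0 h, 0.749 in S51A and 0.783 in ATF4-/- cells, and it was under 0.5 in 4 of 15 columns, all of them WT. The level was 10.9 and 12.9 RPKM in the WT cytosol libraries and 5.47 and 8.79 RPKM on the ER. In S51A cells it was 3.72 and 0.912 RPKM in cytosol and 2.54 and 11.3 RPKM on the ER, so the S51A fractions overlap. In ATF4-/- cells it was 0.603 and 1.27 RPKM in cytosol and 3.93 and 2.86 RPKM on the ER, which do not overlap. The fitted ER minus cytosol difference was 1.14 ± 0.618 (SE, adjusted p = 0.128) in S51A and 1.19 (adjusted p = 0.18) in ATF4-/- cells, both on the log2(RPKM + 1) scale and short of the limma threshold. Fgf7, Lrpprc and Spast were the other cytosol-side genes at 0.5 or more in both mutant lines, with Fgf7 at 0.601 and 0.507.

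The depth behind these levels differs between genotypes. Whole reads recovered for single libraries summed to 298952 to 11094756 footprints in WT (median 1898933), 6229076 to 15167088 in S51A and 2023221 to 8504333 in ATF4-/- libraries. mRNA libraries were shallow, at 56945 to 383816 reads in WT. Nothing in the labels says whether both libraries of a group are from different cultures, so each p-value reflects only the spread between them, which may be technical. The chi-square of counts per degree of freedom between the libraries of a group was 1.903 or more in 30 footprint groups and 1.866 or more in the 18 mRNA groups that gave 2 libraries, so none of these pairs differed by sampling noise alone. The other 12 mRNA groups were not compared in this way. Cytosol footprints of Atf4 were 6.91 and 7.98 RPKM in libraries labelled ATF4-/- at 0 h and 162 and 284 RPKM at 4 h, against 100.5 and 73.8, then 781 and 784 RPKM in WT. Which part of the allele is deleted is not given, so this level does not check the label. Fibroblast markers were at 10 RPKM or more for 10 of 10 genes in WT and 7 of 10 in each other genotype. Epithelial, endothelial and blood markers summed to at most 1.72 RPKM per list. The 4 neural markers summed to 75.4, 158 and 91.6 RPKM in WT, S51A and ATF4-/- cells, with 2 of 4 genes at 10 RPKM or more in each, and the 3 muscle markers, mainly Acta2, which fibroblasts in culture also make, to 1710, 5934 and 465 RPKM. Their part in the results was not tested. In such bulk samples, fewer cells of a type and less RNA per cell cannot be told apart.

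In untreated S51A cells, 79 of the 165 tested cytosol-side genes had fewer footprints on the ER than in the cytosol at an adjusted p under 0.05. None had more, where 18% of all genes did, and none had more at an unadjusted p under 0.05 or by voom. Voom called 109 lower, beside 4312 of 10400 genes over all and 3385 of 5182 without the flag. Lower in the limma test were 29.2% of all 10414 genes, and 2628 of the 5186 tested genes without the flag, a share no smaller than that of the cytosol-side genes. The median ER minus cytosol difference was -0.777 on the log2(RPKM + 1) scale for cytosol-side genes, -0.713 for genes without the flag and 3.12 for ER-side genes, and -0.472 over all genes. The test was limma over the 60 recovered footprint libraries, with Benjamini-Hochberg adjustment over all genes tested. The fit treats the fractions as independent, yet each culture gave both, so the standard errors leave out any error they share. Tail-anchored genes gave 33 of 52 lower with a median of -1.03, SNAREs 16 of 23 with -1.10, inner mitochondrial genes 12 of 20 with -0.793 and outer mitochondrial genes 8 of 18 with -0.638. After TMM-type scaling of the recovered levels, 12 cytosol-side genes were lower and 1 higher, beside 447 and 2157 of all genes. The all-gene median moved by 0.39 to -0.082, and the median of the cytosol-side genes was -0.31. The scaled test left 8 of 52 tail-anchored genes lower with a median of -0.557, 3 of 23 SNAREs with -0.62, 1 of 20 inner mitochondrial genes with -0.314 and 1 of 18 outer mitochondrial genes with -0.176. The split of all calls moved from 38.1% to 82.8% higher. Without cytosol library a the count of 79 was 38, and without ER library a it was 46.

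The 5 cytosol-side genes of the ER translocon list encode small subunits. Sec61g, the gamma subunit of the Sec61 channel, had 1021 and 1008 RPKM in the S51A cytosol libraries and 386 and 349 RPKM on the ER. Serp1, a small protein that binds the translocon and is also called RAMP4, had 487 and 346 RPKM in cytosol and 135 and 137 RPKM on the ER. The fractions did not overlap for either gene, and the differences were -1.46 ± 0.295 (adjusted p = 0.000127) and -1.58 ± 0.283 (adjusted p = 2.48e-05). After TMM-type scaling they were -0.969 and -1.09 and still passed. Sec61b was lower on the ER (-0.934, adjusted p = 0.0475, lost after TMM-type scaling and without either cytosol library or ER library b), with 575 and 728 RPKM in cytosol and 536 and 213 RPKM on the ER, so its ER libraries differed more from each other than the nearest ER and cytosol libraries did. Ost4 had 2555 and 1394 RPKM in cytosol and 1192 and 969 RPKM on the ER, a difference of -0.812 that did not pass (adjusted p = 0.291), nor did that of Emc6, a subunit of the ER membrane complex (-0.677, adjusted p = 0.532). Among the other 36 tested genes of the list, 34 were higher on the ER with a median of 3.42, where 18% of all genes were higher, and of 50 tested secreted and matrix genes 41 were higher and 5 lower.

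Among SNAREs, Use1, which acts in Golgi-to-ER traffic, had 35.1 and 28.4 RPKM in S51A cytosol and 9.55 and 11.7 RPKM on the ER. Vamp3, an endosomal SNARE, had 82.0 and 64.2 RPKM in cytosol and 34.1 and 30.98 RPKM on the ER. Each cytosol value thus exceeded each ER value, and the differences were -1.49 (adjusted p = 2.64e-06) and -1.13 (adjusted p = 0.00138). Stx12 (-1.40), Vamp8 (-1.10) and the Golgi SNARE Stx5a (-1.10) were also lower. After TMM-type scaling Use1 (-1.02) and Stx12 (-0.924) kept the call, and Vamp3 (-0.649), Vamp8 (-0.614) and Stx5a (-0.62) lost it. Without ER library a Stx12, Vamp8 and Stx5a lost it, and without cytosol library a Vamp8 and Stx5a did. Of the other tail-anchored genes, Vapa had 145 and 124 RPKM in cytosol and 42.4 and 70.6 RPKM on the ER (-1.28, adjusted p = 0.0022). Cyb5, the microsomal cytochrome b5, was at -1.09 and Cyb5b at -1.01 (adjusted p = 0.00335). Emd, the inner nuclear membrane protein emerin, had 123 and 118 RPKM in cytosol and 61.9 and 51.05 RPKM on the ER, a difference of -1.08. After TMM-type scaling the differences were -0.79 for Vapa, -0.598 for Cyb5, -0.524 for Cyb5b and -0.594 for Emd, and none of these passed. Vapa also lost the call without ER library a and Cyb5b without ER library b. Emd was the 1 cytosol-side gene of the nuclear envelope list, whose other tested genes were higher on the ER in 12 of 14 cases.

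The mitochondrial genes were less uniform. Bnip3l, a mitophagy receptor, had 79.6 and 59.2 RPKM in S51A cytosol and 14.96 and 30.8 RPKM on the ER (-1.63, adjusted p = 0.000841). Fis1, a fission adaptor shared with peroxisomes, was at -1.19, and Minos1 had 413 and 294 RPKM in cytosol and 113 and 186 RPKM on the ER (-1.26, adjusted p = 5.97e-05). Other outer membrane genes did not pass the test: Bnip3 at -0.936 (adjusted p = 0.089), the import subunit Tomm7 at -0.749 (adjusted p = 0.0842), Bax at -0.187 (adjusted p = 0.591) and the multispan protein Tspo at -0.155 (adjusted p = 0.718). Bax, a proapoptotic Bcl-2 protein, had 72.6 and 60.4 RPKM in cytosol and 63.2 and 53.4 RPKM on the ER, so its fractions overlap. Of the 5 Bcl-2 family genes, 1 was lower, and the prosurvival Mcl1 was at -0.557 (adjusted p = 0.107). The largest differences of all cytosol-side genes were those of the inner mitochondrial Higd2a (-1.81), Smim8 (-1.75), Bnip3l, Smim14 (-1.59) and the inner mitochondrial Romo1 (-1.59). Those of Higd2a, Smim14 and Romo1 lost the call after TMM-type scaling and without cytosol library a or ER library a. Fis1 lost it after TMM-type scaling and without cytosol library a or ER library a. Higd2a also lost it without cytosol library b, and Bnip3l and Smim8 lost it without ER library a.

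In libraries labelled ATF4-/- at 0 h, 15 of the 165 genes were lower on the ER and none higher, where 7.49% of all genes were lower and 17% higher. Of the 5188 tested genes without the flag, 733 were lower, a larger share than that of the cytosol-side genes, and 165 were higher. At an unadjusted p under 0.05, 26 cytosol-side genes were lower and 1 higher, beside 1429 and 1982 of all genes. Voom gave 15 and 2, beside 775 and 2179 of all genes. The median was -0.278 for cytosol-side genes, -0.324 for genes without the flag and 3.26 for ER-side genes. Ptpn2, a tyrosine phosphatase, had 36.2 and 37.7 RPKM in cytosol and 17.7 and 20.8 RPKM on the ER, a difference of -0.911 (adjusted p = 6.34e-05). Synj2bp, an outer mitochondrial membrane protein, had 71.2 and 67.7 RPKM in cytosol and 38.5 and 28.5 RPKM on the ER (-1.04, adjusted p = 0.00638). The fractions of both genes were apart, and the Synj2bp call was lost without ER library b. Ptpn2 kept its call without each library. Use1 (-0.831), Serp1 (-0.917, lost without cytosol library a or ER library a), Cyb5b (-0.854), Cyb5, Mcl1, Sdcbp, the respiratory subunit Sdhc, Dhodh of pyrimidine synthesis, Stx18 and Rhot1 were also among the 15, and each of these lost its call without ER library a. Tail-anchored genes gave 8 of 52 lower with a median of -0.412. Of the 36 other ER translocon genes, 34 were higher with a median of 4.04. The count of 15 was 22 after TMM-type scaling, where 1234 of all genes were lower. It was 4 without ER library a, 8 without cytosol library a and 9 without cytosol library b.

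A direct comparison of the ER minus cytosol difference between S51A and ATF4-/- cells at 0 h called none of the 165 genes, where 1.17% of all genes were called. The unadjusted p was under 0.05 for 19. The median difference was -0.499 for cytosol-side genes and -0.322 over all genes. A larger number of calls in S51A cells is therefore not shown to be a difference between the genotypes.

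Shifts of the ER share during stress were tested as the change of the ER minus cytosol difference. In S51A cells none of the cytosol-side genes was called at 1 h or 4 h, as was no gene of the whole table (0%). Their median shifts were -0.272 and 0.297, beside -0.25 and 0.159 over all genes, with 1 and 2 genes at an unadjusted p under 0.05 and 0 by voom. In ATF4-/- cells none was called at 1 h, where 3.13% of all genes were called, or at 4 h, where 0.0768% were. The unadjusted p was under 0.05 for 21 and 3 genes, and voom called 0 at both times. Their median shift at 1 h was -0.435, beside -1.57 for the ER-side genes, of which 195 were lower. After TMM-type scaling the all-gene median at 1 h moved by 0.235 in S51A and 0.465 in ATF4-/- cells, and the cytosol-side medians became 0.005 and 0.133, so the sign of these shifts is not fixed.

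At 4 h, no cytosol-side gene was called for a difference in ER share between a mutant line and WT. The S51A minus WT difference called none of the 165, where 1.22% of all genes were called, with 6 at an unadjusted p under 0.05 and 0 by voom. The ATF4-/- minus WT difference called none, where 0.951% were called, with 9 unadjusted and 0 by voom. A pseudocount of 4 gave 1 call for S51A, and leaving out WT ER 4 h library a gave 1 call for ATF4-/- cells. The S51A and ATF4-/- shifts at 4 h also did not differ for any of them (0.0288% of all genes called, 2 unadjusted). A p short of the threshold does not show that shares were equal. In WT cells, 9 genes were called higher on the ER at 4 h than at 1 h (5.79% of all genes) and 1 lower (0.999%). After TMM-type scaling 0 were higher and 1 lower, beside 70 and 96 of all genes, and the cytosol-side median turned from 0.362 to -0.082. None of these 10 was called by voom, and no gene was called once the footprint libraries under 500000 reads were dropped. Leaving out ER library b of 1 h or of 4 h also gave 0 calls, cytosol 4 h library a or b gave 1 and cytosol 1 h library b gave 3. Leaving out ER 1 h library a gave 29 and cytosol 1 h library a 23.

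Cytosol footprint levels rose over the stress course for a few cytosol-side genes. Serp1 rose by 4 h in S51A and ATF4-/- cells and from 1 h to 4 h in WT. Serp1 had 487 and 346 RPKM at 0 h, 409 and 566 at 1 h and 891 and 1086 at 4 h in S51A. It had 167 and 136, then 209 and 222, then 353 and 342 RPKM in ATF4-/- cells. Both libraries at 4 h were above both at 0 h in each line, with changes of 1.26 ± 0.283 (adjusted p = 0.0105) and 1.20 (adjusted p = 0.00571). In WT it had 312 and 239 RPKM at 0 h, 276 and 345 at 1 h and 566 and 755 at 4 h, a change of 1.08 from 1 h to 4 h (adjusted p = 0.00913). The S51A call was lost without cytosol 0 h library b, 4 h library a or 4 h library b, the ATF4-/- call without cytosol 0 h library b, and the WT call without cytosol 1 h library a or 4 h library b.

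In S51A cells at 4 h, 4 of the 165 genes were higher in cytosol than at 0 h, where 0.72% of all genes were higher. None was lower, where 117 of all 10414 genes were. At an unadjusted p under 0.05, 8 were lower, beside 745 of all genes. By voom 5 were lower, beside 389 of 10400. The 4 higher genes included Serp1, Far1, which makes fatty alcohols for ether lipids at peroxisomes, and Tsr1. Far1 had 42.3 and 47.1 RPKM at 0 h, 37.2 and 53.7 at 1 h and 123 and 118 at 4 h, a change of 1.41 ± 0.219 (adjusted p = 7.86e-05). Tsr1 had 14.3 and 18.1 RPKM at 0 h, 25.7 and 22.03 at 1 h and 41.3 and 36.7 at 4 h, a change of 1.22 ± 0.189 (adjusted p = 7.21e-05). Both kept their call under every alternative tried. At 1 h in S51A none was called, where 0.134% of all genes were, with 5 at an unadjusted p under 0.05 and 0 by voom. Voom called 13 genes at 4 h, the mean of both fractions called 17, and without cytosol 4 h library b the count was 2.

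**Figure D4:**
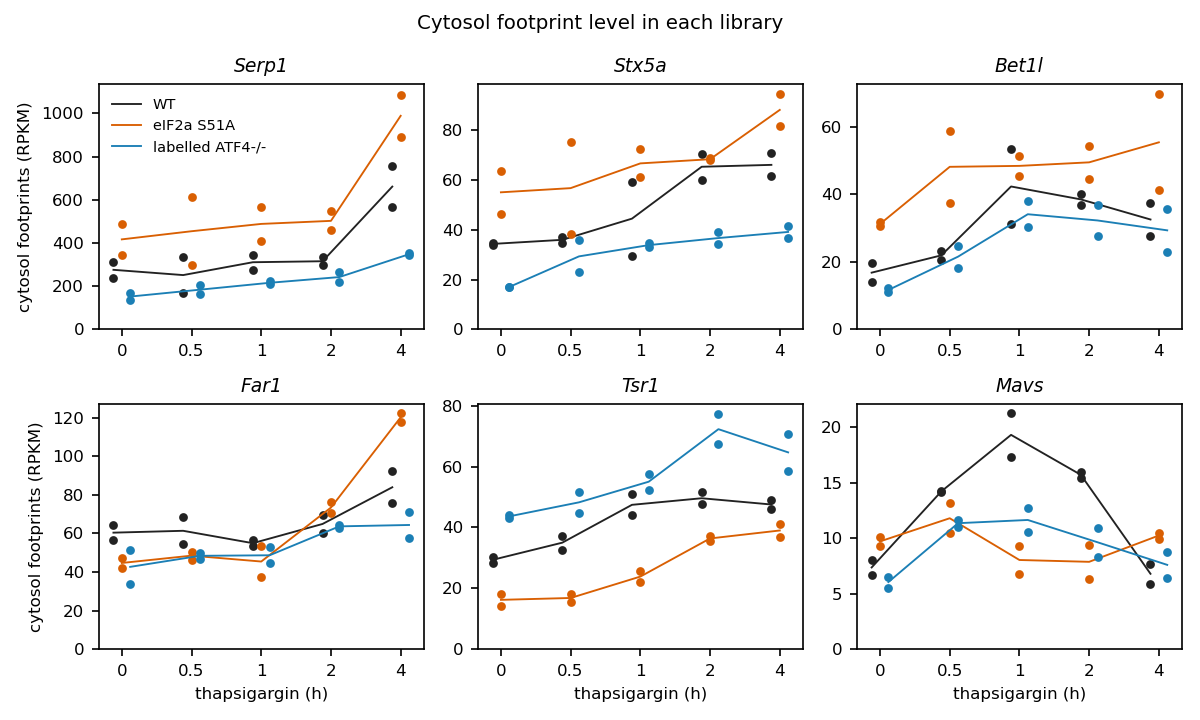
Cytosol footprint level (y axis, RPKM) of 6 cytosol-side genes against thapsigargin time (x axis, h, spaced evenly), with 1 point per library and a line through the mean of each pair. Serp1 was highest at 4 h in all 3 genotypes, and Mavs in WT peaked at 1 h, at 21.3 and 17.3 RPKM.

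In ATF4-/- cells, 10 genes were higher in cytosol at 1 h, where 8.91% of all genes were higher, and at 4 h 8 were higher (5.3%) and 1 lower (2.4%). The shares of the set, 10 and 8 of 165, were thus close to those of all genes. Bet1l, a Golgi SNARE, had 12.2 and 11.1 RPKM at 0 h, 37.9 and 30.3 at 1 h and 35.8 and 22.9 at 4 h, with changes of 1.47 (adjusted p = 0.00271) and 1.23 (adjusted p = 0.0157). Stx5a, which pairs with Golgi SNAREs, had 17.1 and 16.9, then 33.1 and 34.6, then 41.5 and 36.8 RPKM, with changes of 0.952 and 1.15. Both SNAREs were thus above their 0 h pair at each time. Sec61g had 356 and 530 RPKM at 0 h and 920 and 951 at 1 h, a change of 1.105 (adjusted p = 0.0118), lost after TMM-type scaling, by voom and without cytosol 0 h library a or either 1 h library. Ghitm, an inner mitochondrial membrane protein, and Zfpl1, a Golgi protein, were called at both times. Coa3, Aldh9a1, Selm, Myof and Mavs were called at 1 h, and Mthfd2, a mitochondrial folate enzyme, and Aldh3a2 at 4 h.

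The 1 gene lower at 4 h was S100a10, the binding partner of annexin A2, with 611 and 628 RPKM at 0 h and 374 and 257 RPKM at 4 h (-0.996, adjusted p = 0.0112), a call lost without cytosol 0 h library a or b or 4 h library b. The Stx5a call at 4 h was lost without any 1 of the 4 libraries. In the ER translocon list, 1 of 5 cytosol-side genes was higher at 1 h, and 22 of the other 36 genes were, with a median of 1.82. TMM-type scaling moved the all-gene median at 1 h by -0.296 and left 1 cytosol-side gene higher and 13 lower, beside 555 and 817 of all genes. At 4 h the scaling gave 5 higher and 6 lower, beside 508 and 649 of all genes, so no direction holds for the set. Leaving out 1 library gave 1 to 6 calls at 1 h, with 1 call without cytosol 1 h library b, 6 without 1 h library a, 3 without 0 h library a and 5 without 0 h library b. At 4 h it gave 3 without cytosol 0 h library b or 4 h library b, 4 without 0 h library a and 5 without 4 h library a. The 1 gene still higher at 1 h after scaling was Bet1l, and at 4 h Zfpl1, Mthfd2 and Aldh3a2 lost the call. Bet1l lost it at 1 h without cytosol 1 h library a, and lost it at 4 h without cytosol 0 h library a or b or 4 h library a.

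In WT cells from 1 h to 4 h, 13 cytosol-side genes were called higher in cytosol (6.91% of all genes) and 4 lower (7.8%). Some of these libraries are shallow, and 6 of the 17 were also called by voom and when at least 20 reads were predicted in every library compared, a filter that 71 genes passed. They included Serp1, Ptpn2, Sacm1l, a phosphoinositide phosphatase of the ER and Golgi, Mavs and Gnptab. Ptpn2 had 41.3 and 45.2 RPKM at 1 h and 83.1 and 106 RPKM at 4 h, a change of 1.104 (adjusted p = 4.93e-05). Sacm1l had 26.2 and 25.8 RPKM at 1 h and 42.7 and 46.5 RPKM at 4 h (0.755, adjusted p = 0.00693), a call lost without cytosol 4 h library b. Gnptab had 36.4 and 40.5 RPKM at 1 h and 10.1 and 2.87 RPKM at 4 h (-2.59, adjusted p = 0.00433), and that call was lost without cytosol 4 h library b. In all of these genes both libraries at 4 h were apart from both at 1 h. The count of 17 was 36 without cytosol 1 h library a, 11 without cytosol 4 h library a and 6 without cytosol 4 h library b. TMM-type scaling gave 24 higher and 2 lower, beside 1174 and 510 of all genes.

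Mavs, the mitochondrial adaptor of the antiviral RNA sensors RIG-I and MDA5, was the 1 cytosol-side gene called for a different cytosol change between S51A and ATF4-/- cells. In WT it had 8.01 and 6.69 RPKM at 0 h, 21.3 and 17.3 at 1 h and 7.66 and 5.90 at 4 h, a fall of -1.38 from 1 h to 4 h (adjusted p = 5.77e-06). In ATF4-/- cells it had 6.53 and 5.54 RPKM at 0 h and 10.6 and 12.7 at 1 h, a change of 0.843 ± 0.186 (adjusted p = 0.00224) that was 0.424 (adjusted p = 0.158) after TMM-type scaling and lost the call without cytosol 0 h library b or 1 h library b. In S51A cells it had 9.33 and 10.1 RPKM at 0 h and 6.79 and 9.26 at 1 h, and the 1 h change was -0.258. The S51A minus ATF4-/- difference at 1 h was -1.1 ± 0.263 (adjusted p = 0.0107), where 3.55% of all genes were called, with 14 of the 165 at an unadjusted p under 0.05. In alternatives chosen after seeing the data, the difference was -0.717 (adjusted p = 0.133) after TMM-type scaling and -1.13 (adjusted p = 0.0124) by voom. It lost the call without S51A 0 h library b or 1 h library a, and without ATF4-/- 0 h library b or 1 h library b. At 4 h no cytosol-side gene differed in this way, where 2.15% of all genes did and 14 were at an unadjusted p under 0.05.

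The mRNA of the cytosol-side genes was spread over both fractions. In WT at 0 h the deposited mRNA fraction on the ER had a median of 0.552 over the 135 genes with a value, beside 0.827 for ER-side genes and 0.514 for genes without the flag. The footprint fraction of WT at 0 h chose the cytosol-side and ER-side genes, so its difference from the mRNA fraction is partly fixed by that choice and is given as a description. In those 135 genes the mRNA fraction was higher than the footprint fraction in 120, by a median of 0.164. In genes without the flag it was higher in 4030 of 4766 by 0.125, and in ER-side genes in 37 of 594, with a median difference of -0.103. In WT at times the rule did not use, the medians over cytosol-side genes lay in the same order, at 0.5 h with 0.387 for mRNA and 0.29 for footprints over 142 genes, and at 4 h with 0.536 and 0.427 over 146. At 0.5, 1, 2 and 4 h the median mRNA minus footprint difference of cytosol-side genes was 0.0803, 0.135, 0.157 and 0.114. In genes without the flag it was 0.0883, 0.172, 0.142 and 0.129, thus larger at each of these times except 2 h. Serp1 had 107 RPKM of mRNA in WT at 0 h, with 0.446 of its mRNA and 0.276 of its footprints on the ER. Its fitted ER minus cytosol mRNA difference was 2.251 ± 1.965 (SE, limma adjusted p = 0.9125). That is opposite in direction to the pooled mRNA fraction, which is therefore uncertain for this gene. Fgf7 had 1302 RPKM of mRNA, the highest of the 196 genes, with 0.623 of its mRNA and 0.497 of its footprints on the ER. Bnip3 had 0.774 of its mRNA and 0.312 of its footprints on the ER, at an mRNA level of 22 RPKM. Its fitted ER minus cytosol mRNA difference was 1.229 ± 1.886 (SE, limma adjusted p = 0.9688), so its mRNA fraction is uncertain too. The 2 kinds of library carry separate fraction weights, so the offset between them is a level the authors' scaling can set.

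**Figure D5:**
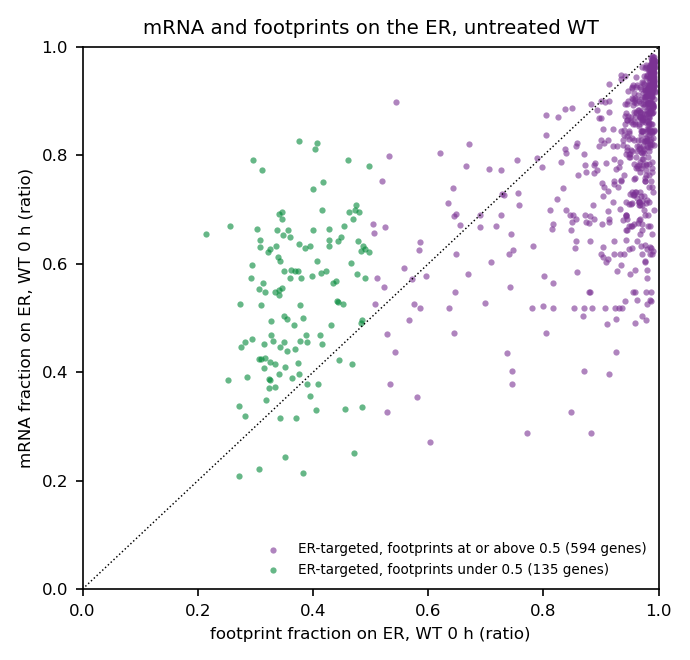
Fraction of mRNA on the ER (y axis, ratio) against the fraction of footprints on the ER (x axis, ratio) in untreated WT cells, with 1 point per gene. Cytosol-side points lie mostly above the dotted line of equal fractions, in 120 of 135 genes, as do 37 of 594 ER-side points, and the x axis is the value that divided the sets at 0.5.

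Tests of mRNA had little depth. On the ER against the cytosol in WT at 0 h, 1 of 153 tested cytosol-side genes was called, where 0.0688% of all genes were lower. This was Bnip3l, at 9 and 3 reads in cytosol and 0 and 0 on the ER, which passed with an adjusted p of 0.0284. The call was lost by voom and without any 1 of the 4 libraries, and 7 genes had an unadjusted p under 0.05. From 0 h to 4 h no cytosol-side mRNA was called in WT cytosol, where 0.0295% of all genes were, with 6 at an unadjusted p under 0.05 and 0 by voom.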

How the data were processed

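Ribosome footprints (micrococcal nuclease) and RiboZero-depleted mRNA were sequenced from cytosol and ER fractions, in 120 samples and 60 groups. The labels' protocols name a directional small RNA kit, and the submitters' processing notes name cutadapt 1.6 and Bowtie 1.1.1. The authors' genome build is not given. The deposited tables hold pooled RPKM levels, which are the authors' values, and a ratio per gene, the fraction on the ER.

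Levels of single libraries were recovered from the deposited RPKM with coding lengths of 20224 genes (90.22%) from GENCODE M21, as whole reads, and 98.09% of footprint values per gene and group could be solved. Of mRNA values 92.7% could be, since 2 S51A groups could not be resolved. The 10 ATF4-/- mRNA groups gave 1 library each, and only the 18 mRNA groups with 2 libraries were tested. The recovered reads served the depth filter and voom. Each library of a group is called a or b; these letters pair nothing across groups. Levels were tested with limma 3.58.1 (R 4.3.3) on log2(RPKM + 1), with a trend and empirical Bayes, over 60 footprint or 36 mRNA libraries with 1 mean per group, for genes of 1 RPKM or more in at least 10 libraries. Adjusted p is Benjamini-Hochberg over all genes tested, two-sided, with a threshold of 0.05. Wild-type 0 h footprints chose the genes and were not tested. Sequences and segments were read with Python 3.11.15 and Biopython 1.88. The recovery and the test were tested on simulated data. The check for false calls left out the main limma test of wild-type cells, where some footprint libraries are shallow. Its adjusted p-values for genes of low level are therefore uncertain.

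The members and lists were chosen with earlier results of these data known. Genes are named by this rule: the 10 highest levels in wild-type cells at 0 h, up to 4 per role list by that level, up to 5 per test and direction by change, the 3 on each side of both limits, and the 5 widest and narrowest ranges of the fraction. Genes of 5 or fewer in a count, and some named beside a contrast, were chosen after their values were seen. Alternatives were a pseudocount of 0.5 or 4, no filter, at least 20 reads, TMM-type scaling, voom, the mean of both fractions, no libraries under 500000 reads, and each library left out. Results of 1 gene are not reported here.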

Additional observations from a re-analysis of the deposited data

Results flagged for a closer look

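The change of Mavs in cytosol footprints from 0 h to 1 h differed between S51A and ATF4-/- cells by a test of the difference itself, at -1.1 on the log2(RPKM + 1) scale (SE 0.263, limma adjusted p = 0.0107). In ATF4-/- cells both 1 h values were above both 0 h values, and in S51A cells both 1 h values were below both 0 h values. In alternatives chosen after seeing the data, the call was lost after TMM-type scaling, at -0.717 (adjusted p = 0.133). Leaving out S51A 0 h library b or 1 h library a, or ATF4-/- 0 h library b or 1 h library b, also lost it. Mavs was the 1 gene called of the 165 cytosol-side genes, where 3.55% of all genes were called.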

How the results depend on the processing

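Of 462 values, for the genes with the largest changes per test under the alternatives, 304 kept their direction and side of the threshold, 158 kept their direction but lost the call, and 0 reversed. Of these genes, called under every alternative were Far1 and Tsr1 in S51A at 4 h, Ptpn2 on the ER in ATF4-/- cells at 0 h, and Mavs in WT from 1 h to 4 h. Il1rn in WT was called under each alternative but the 20-read filter, which it did not pass and so was not tested there. Counts of cytosol-side genes moved by over 1.5 times as follows. For the ER minus cytosol difference at 0 h, S51A gave 13 after TMM-type scaling and 38 to 69 without 1 library, and ATF4-/- gave 4 to 10 without 1 library. For the WT share from 1 h to 4 h, no filter gave 6, at least 20 reads 6, TMM-type scaling 1, voom 0, no libraries under 500000 reads 0, and leaving out 1 library 0 to 29. The S51A and WT share at 4 h gave 1 with a pseudocount of 4. The ATF4-/- share at 1 h and the ATF4-/- and WT share at 4 h gave 0 to 1 without 1 library. For cytosol levels, S51A at 4 h gave 13 by voom, 17 by the mean of both fractions and 2 to 4 without 1 library. ATF4-/- at 1 h gave 21 by the mean of both fractions and 1 to 6 without 1 library, and at 4 h 15 by voom, 25 by the mean and 3 to 5. WT from 1 h to 4 h gave 10 with at least 20 reads, 26 after TMM-type scaling, 28 by voom, 57 by the mean and 6 to 36. The mRNA call at 0 h was 0 with a pseudocount of 4, with at least 20 reads, by voom and without any 1 library. A limit of 0.4 on the fraction kept 128 of the 196 genes. The cause of these moves was not tested.

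TMM-type scaling moved the all-gene median by -0.342 for the WT share, 0.338 for the S51A and WT share at 4 h, 0.163 for WT cytosol and -0.126 for mRNA at 0 h. The share of higher calls went from 85.3% to 42.2% for the WT share, 62.2% to 82.1% for S51A against WT, 39.1% to 52.5% for S51A cytosol at 4 h, 92.9% to 40.5% and 68.8% to 43.9% for ATF4-/- cytosol at 1 h and 4 h, and 47% to 69.7% for WT cytosol. No paired analysis was possible because the recovered libraries carry no replicate number. Low mRNA depth and shallow WT footprint libraries limit what could be called.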
